A study of Caenorhabditis elegans with 12 samples.

Results

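The genes described here are 7 of Caenorhabditis elegans that encode tubulins enriched in cilia or enzymes that modify the tails of tubulin. They are the alpha-tubulin genes tba-5, tba-6 and tba-9, the beta-tubulin gene tbb-4, the glutamylase genes ttll-4 and ttll-11 and the deglutamylase gene ccpp-1. The members were taken by name from the annotation of the array, and all 7 were found among the 17118 named genes. They had 8 probe sets, since ccpp-1 had 2 and each other member had 1. All 8 were tested, since no filter on low values was used.

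Whole embryos at the 3-fold stage, late in elongation, were measured on Affymetrix arrays in 3 genotypes. The double mutant (strain JT6924) carries daf-19(m86) and daf-12(sa204), the single mutant (strain JT204) carries daf-12(sa204) alone and is marked daf-12 in the plots, and the wild type (strain JT5010) is labelled N2 Bristol. The double mutant and the single mutant share daf-12(sa204), so they differ by daf-19(m86) as labelled. DAF-19, of the RFX family of transcription factors, switches on many ciliary genes. The nuclear receptor DAF-12 acts in the choice between dauer and reproductive development. Each genotype had 4 columns of values, but the first 2 of the double mutant were identical and were counted as 1 array, called array 1-2 here. The groups compared thus held 3, 4 and 4 arrays.

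The core of a cilium is an axoneme of microtubules built from alpha- and beta-tubulin. Motors of intraflagellar transport carry cargo along these microtubules. Glutamylases of the TTLL family add glutamate side chains to the tubulin tails, and carboxypeptidases such as CCPP-1 take them off. In C. elegans only some sensory neurons are ciliated, and loss of ccpp-1 is known to lead to decay of cilia in the adult. Expression here is a log2 value for the whole embryo, so fewer ciliated cells and less RNA per cell cannot be told apart.

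The targeted gene was lower in the double mutant. At its brighter probe set the log2 level of daf-19 averaged 8.52 ± 0.32 (SD, n = 3) there, while the single mutant had 9.97 ± 0.15 (n = 4) and the wild type 10.14 ± 0.26 (n = 4). The limma adjusted p was 0.0281 against the single mutant and 0.00891 against the wild type, and with a replicate block these were 0.0553, which ends the first call, and 0.0268. No label names a batch, but control signals split the arrays. The 24 probe sets for poly-A spike-ins, which match bacterial transcripts, averaged 4.16 to 4.32 on replicates 1 and 2 of all genotypes and 7.16 to 10.21 on replicates 3 and 4. Values within each of these sets are given beside the members' differences between the double mutant and the single mutant, and beside some others. A difference given without them may also depend on the set. Within replicates 1 and 2 the double mutant had array 1-2 alone, so its differences there rest on 1 array of that genotype. Markers of muscle, intestine, epidermis and neurons in general had group means of 5.27 (bli-1 of the epidermis) to 12.25 (act-5 of the intestine). Early embryo and germline markers had group means of 4.64 to 8.03. Nothing in the labels tells whether replicates were grown separately, so p-values reflect array-to-array spread, which may be technical.

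None of the 7 genes was called between the double mutant and the single mutant. With a probe set called at an adjusted p under 0.05 in limma, 0 of the 8 member probe sets were lower and 0 were higher, where 0.0577% and 0% of all 22548 tested probe sets were. At an unadjusted p under 0.05, 2 of the 8 were lower (ttll-11 and tba-5) and 0 higher, where the shares of all probe sets were 2.39% and 2.53%. The median log2 difference of the 7 genes was -0.20, and 5 lay below 0. The median of all probe sets was -0.01, and 51.7% lay below 0.

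**Figure D1:**
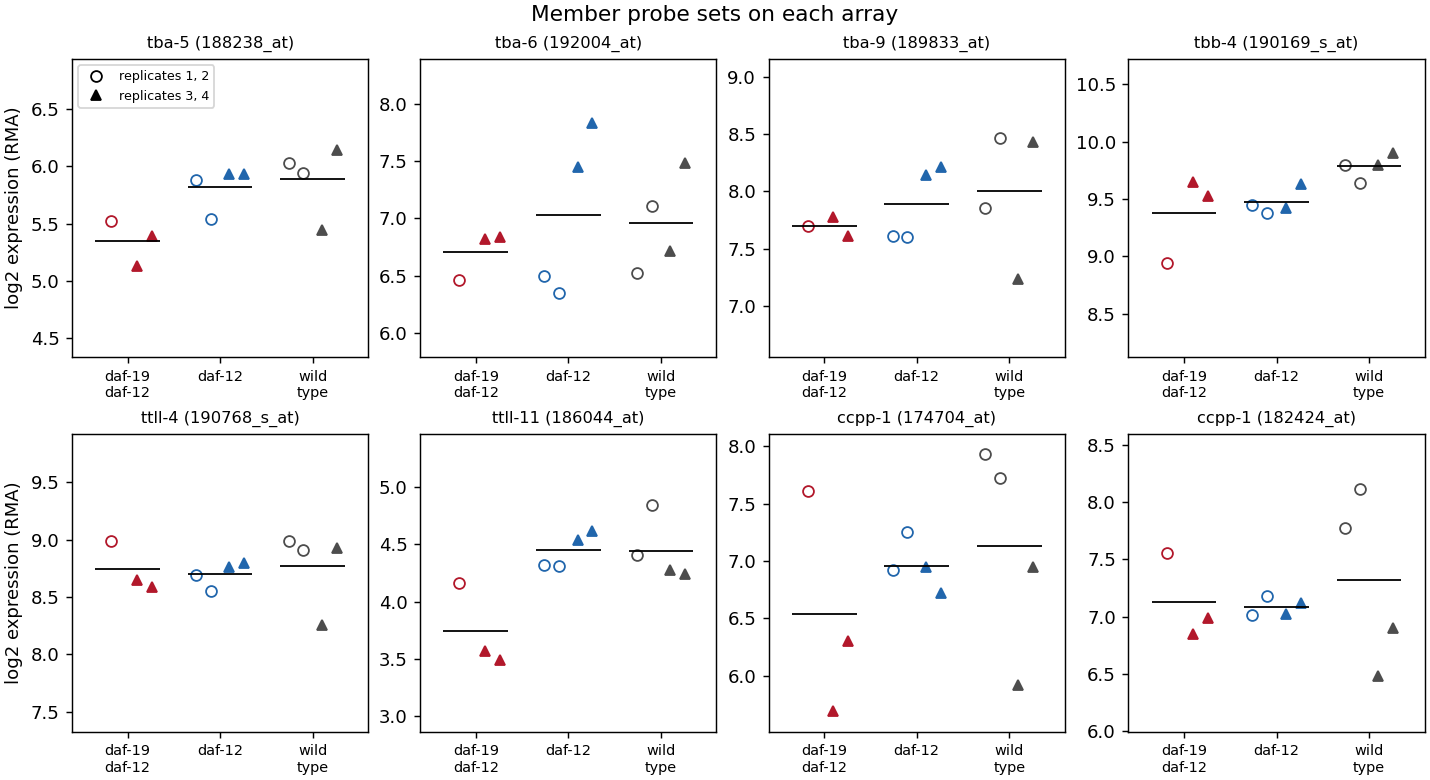
Log2 expression of the 8 member probe sets on each of 11 arrays, by genotype. Each panel spans the same height of log2 units, circles are replicates 1 and 2, triangles are replicates 3 and 4, and lines are group means. The double mutant lies below the single mutant without overlap in the panels of tba-5 and ttll-11, and in the other 6 panels these groups overlap.

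The alpha-tubulin gene tba-5 encodes a tubulin of amphid and phasmid cilia, where altered alleles are known to shorten the distal part of the cilium. Its log2 level was 5.52 on double mutant array 1-2, 5.13 on array 3 and 5.39 on array 4. In the single mutant it was 5.88, 5.54, 5.93 and 5.93 on arrays 1 to 4. In the wild type it was 6.03, 5.94, 5.44 and 6.14.

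Every double mutant array was below every single mutant array, by a gap that was narrow at single mutant array 2, while wild type array 3 lay among the double mutant arrays. The log2 difference was -0.47 ± 0.20 (SE, limma adjusted p = 0.984) against the single mutant, with a 95% interval of -0.91 to -0.03. Against the wild type it was -0.54 ± 0.20 (limma adjusted p = 1), with -0.46 and -0.53 within the sets of arrays. Within replicates 1 and 2 the difference from the single mutant was -0.18, and within replicates 3 and 4 it was -0.67. The values from 5.13 to 5.54, all double mutant arrays among them, lie inside the range of 3.06 to 5.59 that the spike-in probe sets covered on replicates 1 and 2, and the part of background signal was not tested. In order of mean level tba-5 stood lowest in the double mutant (5.35), then the single mutant (5.82) and the wild type (5.89), and the last 2 differed by -0.07 ± 0.19.

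The alpha-tubulin gene tba-6 acts in the cilia of neurons that release extracellular vesicles, where it is known to shape the arrangement of microtubules. Its log2 level was 6.46, 6.82 and 6.84 on double mutant arrays 1-2, 3 and 4. In the single mutant it was 6.50, 6.35, 7.45 and 7.83 on arrays 1 to 4. In the wild type it was 6.52, 7.11, 6.72 and 7.48.

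The single mutant arrays of tba-6 split by set, with replicates 3 and 4 above every double mutant array and replicate 2 below them all. The difference of the double mutant from the single mutant was -0.33 ± 0.36 on the log2 scale (limma adjusted p = 1), with a 95% interval of -1.11 to 0.46. It was 0.03 within replicates 1 and 2, but -0.81 within replicates 3 and 4. The difference from the wild type was -0.25 ± 0.36 (within the sets -0.36 and -0.27), and that of the single mutant from the wild type was 0.08 ± 0.33. No pair of genotypes was called apart in tba-6.

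The alpha-tubulin gene tba-9 encodes a further tubulin of sensory cilia. Its log2 level was 7.70, 7.78 and 7.61 on the double mutant arrays, 7.61, 7.60, 8.14 and 8.21 on the single mutant arrays, and 7.86, 8.47, 7.24 and 8.43 on the wild type arrays. The double mutant had the narrowest spread (SD 0.09, n = 3), against 0.33 in the single mutant and 0.58 in the wild type (n = 4 each), and it overlapped both. The log2 difference was -0.20 ± 0.29 against the single mutant (limma adjusted p = 1), with an interval of -0.84 to 0.44. It was -0.30 ± 0.29 against the wild type, with -0.46 and -0.14 within the sets. The first difference was 0.10 within replicates 1 and 2, but -0.49 within replicates 3 and 4.

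The beta-tubulin gene tbb-4 encodes a tubulin known from the cilia of many sensory neurons. Its log2 level was 8.94, 9.65 and 9.53 on the double mutant arrays. It was 9.45, 9.38, 9.42 and 9.63 in the single mutant and 9.80, 9.64, 9.80 and 9.90 in the wild type. Double mutant array 1-2 was the lowest of all, array 3 was just above the single mutant range and array 4 was within it.

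The log2 difference in tbb-4 was -0.10 ± 0.19 against the single mutant (limma adjusted p = 1), with a 95% interval of -0.51 to 0.31. It was -0.48 within replicates 1 and 2, but 0.07 within replicates 3 and 4. Against the wild type the double mutant was at -0.41 ± 0.19 (limma adjusted p = 1) and the single mutant at -0.31 ± 0.17 (limma adjusted p = 1). Within the sets of arrays the first of these was -0.78 and -0.26, and the second was -0.30 and -0.33. All single mutant arrays lay below all wild type arrays in tbb-4, by a very small gap. This separation held for 0.723% of all probe sets on the lower side. Among the 7 genes it held for tbb-4 alone.

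The glutamylase gene ttll-4 had similar means in the 3 genotypes. Its log2 level was 8.99, 8.65 and 8.59 on the double mutant arrays, 8.69, 8.55, 8.76 and 8.80 on the single mutant arrays, and 8.99, 8.91, 8.26 and 8.93 on the wild type arrays. The genotypes overlapped, and wild type array 3 was the lowest. The differences of the double mutant were 0.04 ± 0.20 from the single mutant, with an interval of -0.40 to 0.48, and -0.03 ± 0.20 from the wild type, with an interval of -0.48 to 0.41 (limma adjusted p = 1 in both). Within replicates 1 and 2 the first was 0.37, and within replicates 3 and 4 it was -0.16.

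The glutamylase gene ttll-11 had the most negative differences of the 7 genes. TTLL-11 is known to act in C. elegans neurons that release extracellular vesicles from their cilia. Its log2 level was 4.16 on double mutant array 1-2, 3.57 on array 3 and 3.49 on array 4. In the single mutant it was 4.32, 4.31, 4.54 and 4.62, and in the wild type 4.41, 4.84, 4.28 and 4.24.

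All double mutant arrays of ttll-11 lay below all arrays of both other genotypes, with array 1-2 close under them. The difference was -0.71 ± 0.21 (SE) from the single mutant, 1.63-fold lower (limma adjusted p = 0.691, n = 3 and 4), with a 95% interval of -1.17 to -0.24. From the wild type it was -0.70 ± 0.21 (limma adjusted p = 0.878), with -0.46 and -0.73 within the sets. The single mutant and the wild type differed by 0.00 ± 0.20. The difference from the single mutant was -0.15 within replicates 1 and 2, but -1.05 within replicates 3 and 4. Fitted on replicates 3 and 4 alone, with 2 arrays a genotype, ttll-11 was called lower (limma adjusted p = 0.0166), where that fit called 4.66% of all probe sets lower and 3.73% higher.

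The signal of ttll-11 was dim. All its values, from 3.49 to 4.84, lie inside the same spike-in range as those low values of tba-5. The mean of ttll-11 over the arrays stood at percentile 15.6 of all probe sets. The part that background signal has in its difference was not tested.

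The deglutamylase gene ccpp-1 differed between the sets of arrays and was not called between genotypes. At its brighter probe set the log2 level was 7.55, 6.85 and 6.99 on the double mutant arrays. It was 7.01, 7.18, 7.02 and 7.12 in the single mutant and 7.77, 8.11, 6.48 and 6.90 in the wild type. In the double mutant and the wild type, replicates 1 and 2 were above replicates 3 and 4, and the single mutant arrays lay close together.

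The difference of the double mutant from the single mutant in ccpp-1 was 0.05 ± 0.34 on the log2 scale at this probe set (limma adjusted p = 1), with an interval of -0.71 to 0.80. It was 0.46 within replicates 1 and 2, but -0.15 within replicates 3 and 4. The dimmer probe set gave -0.43 ± 0.50, with an interval of -1.52 to 0.66. Over all arrays the probe sets thus differed in sign, and neither was called. Inside each set of arrays their signs matched. On replicates 1 and 2 the dimmer one gave 0.52, while on replicates 3 and 4 it gave -0.84. Against the wild type the double mutant was at -0.19 ± 0.34 at the brighter probe set and -0.60 ± 0.50 at the dimmer one. Within the sets these were -0.39 and 0.23 at the brighter one, but -0.22 and -0.44 at the dimmer one. At the dimmer one the log2 level was 7.61, 5.69 and 6.30 in the double mutant, 6.92, 7.25, 6.95 and 6.72 in the single mutant and 7.93, 7.72, 5.92 and 6.95 in the wild type. Double mutant array 3 and wild type array 3 were the lowest of these.

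A fit with the set of arrays as a term, added after the values were seen, gave the difference of replicates 3 and 4 from replicates 1 and 2 within genotype. In ccpp-1 it was -1.02 ± 0.27 on the log2 scale at the dimmer probe set (limma adjusted p = 0.0199) and -0.64 ± 0.20 at the brighter one (limma adjusted p = 0.0414). In tba-6 it was 0.66 ± 0.21 (limma adjusted p = 0.0446). The other 5 member probe sets were not called, with differences from -0.20 to 0.25. Over all probe sets 24.5% were called in this fit, so a shift of this kind was common on these arrays.

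**Figure D2:**
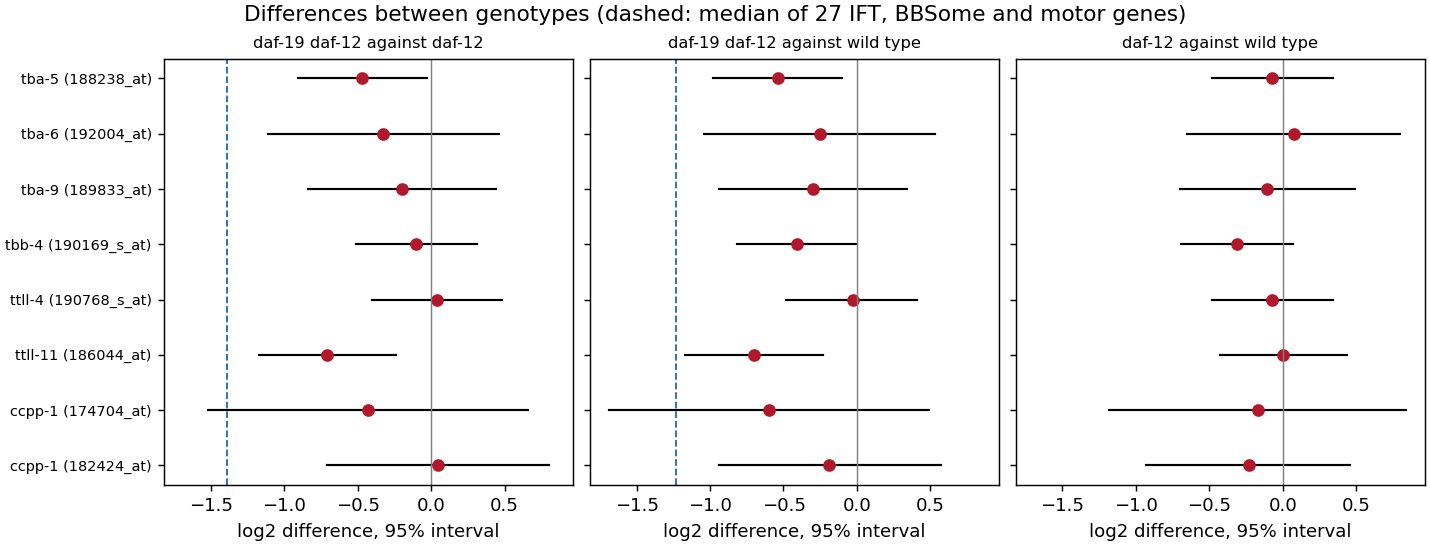
Log2 differences of the 8 member probe sets in the 3 comparisons (points), with 95% intervals from limma (lines). The dashed line is the median difference of 27 IFT, BBSome and motor genes, -1.39 against the single mutant and -1.23 against the wild type. In both of those panels the intervals of 7 of 8 probe sets lie above it, as do those of 94.5% and 93.6% of all probe sets.

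Set against the wild type, the members again had no call, and the 2 comparisons share the double mutant arrays. Of the 8 member probe sets 0 were called lower and 0 higher, where 0.102% and 0.0133% of all probe sets were. At an unadjusted p under 0.05, 3 were lower (ttll-11, tba-5 and tbb-4), and 0 were higher, where the shares of all probe sets were 2.08% and 1.93%. The median difference of the 7 genes was -0.30 and 7 of 7 lay below 0, where the median of all probe sets was -0.03 and 55.7% lay below 0. All double mutant arrays were below all wild type arrays in 1 gene (ttll-11) and above them in 0, where this held for 2.66% and 1.53% of all probe sets. In the comparison with the single mutant it was 2 genes (tba-5 and ttll-11) and 0, where the shares were 2.97% and 2.29%.

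Between the single mutant and the wild type no member was called either. Here 0 of 8 probe sets were called in either direction, where 0% of all probe sets were called lower and 0.0133% higher. Unadjusted, 0 passed p under 0.05 on the lower side and 0 on the higher, where the shares were 1.09% and 1.93%. The median difference of the 7 genes was -0.07 and 5 lay below 0, as did 56.2% of all probe sets. Their differences ran from -0.31 in tbb-4 to 0.08 in tba-6. Within replicates 1 and 2 the median was -0.33, while within replicates 3 and 4 it was 0.32. In ccpp-1 the brighter probe set gave -0.84 and 0.38 in these sets. The dimmer ccpp-1 probe set gave -0.74 and 0.40 in them.

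As a yardstick, 27 genes of intraflagellar transport (IFT), the BBSome and their motors, which carry cargo in the cilium, had a median log2 difference of -1.39 between the double mutant and the single mutant, which is 2.62-fold lower. Of these 27 genes, 1 was called lower and 0 higher, 20 had an unadjusted p under 0.05 on the lower side, and in 21 the double mutant arrays lay lower without overlap. The shares of all probe sets on the lower side were 0.0577%, 2.39% and 2.97%. The transport median was -0.63 within replicates 1 and 2, but -1.86 within replicates 3 and 4, so the yardstick itself depended on the set. That of the 7 members was 0.03 and -0.49 within these sets. The lists overlapped, since 6 of the 27 differed less than ttll-11 did. The interval lay above -1.39 at 7 of 8 member probe sets, as it did for 94.5% of all probe sets, so this count is no result about the members. The values of ttll-11 lie inside the spike-in range of replicates 1 and 2, and the part of background signal was not tested. Its interval may therefore set no limit on the change of the transcript. For the wild type as reference the transport median was -1.23, with 4 called lower, where 0.102% of all probe sets were. The intervals of 7 of 8 member probe sets lay above it, where 93.6% of all did. Within the sets this second median was -1.16 and -1.26, while that of the 7 members was -0.46 and -0.26. No test of the difference between the lists was made.

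**Figure D3:**
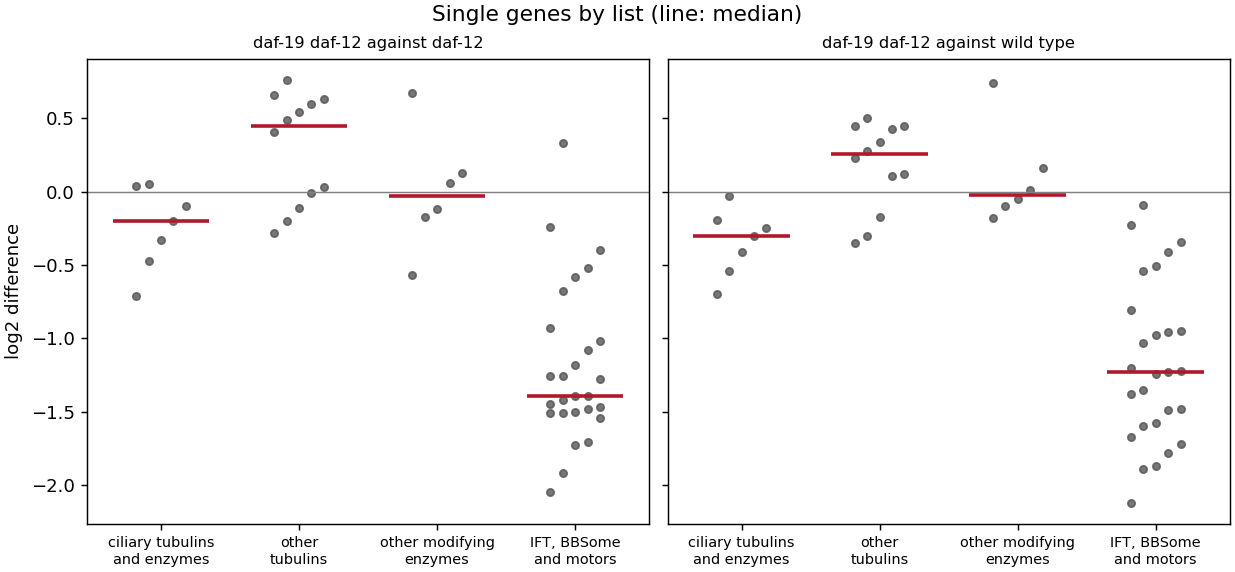
Log2 difference of each gene (points) by list, for the double mutant against the single mutant (left) and against the wild type (right), with list medians as lines. On the left the 7 ciliary tubulin and enzyme genes lie between -0.71 and 0.05, with a median of -0.20. The 27 transport genes lie between -2.05 and 0.33 there, with a median of -1.39, so the lists overlap.

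The other tubulin genes, general ones and those of touch receptor neurons among them, leaned the other way as a list, without a call. Of 12 genes 0 were called in either direction against the single mutant. The median difference was 0.45, with 8 genes above 0 and 4 below. At an unadjusted p under 0.05 there were 4 genes, all on the higher side, where 2.53% of all probe sets were. The gamma-tubulin gene tbg-1, of the microtubule-organizing centre, was at 0.49 ± 0.19 (limma adjusted p = 0.939). The general beta-tubulin gene tbb-2 was at 0.66 ± 0.26 (limma adjusted p = 0.946). The touch receptor tubulin genes mec-7 and mec-12 were at -0.20 ± 0.23 and -0.28 ± 0.28.

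This lean differed between the sets of arrays. The median of the 12 genes was -0.20 within replicates 1 and 2, but 0.76 within replicates 3 and 4. The log2 level of tba-2, a general alpha-tubulin gene, was 10.73, 12.05 and 11.95 on double mutant arrays 1-2, 3 and 4 at its brightest probe set, against 10.76 to 10.93 on the single mutant arrays. Double mutant arrays 3 and 4 were thus high and array 1-2 was not. In the wild type the level was 10.73, 10.91, 11.53 and 11.16 on arrays 1 to 4, so replicates 3 and 4 were higher there too, though by less. Against the wild type the median of the list was 0.26, with -0.18 and 0.48 within the sets, tbg-1 at 0.43 ± 0.19 and tba-2 at 0.50 ± 0.30, and 0 were called. In the single mutant against the wild type it was -0.20 (0.03 and -0.30 within the sets), with tba-1 at -0.37 ± 0.23 and tbb-2 at -0.38 ± 0.24, and 0 were called. Tubulin genes are close copies of each other, and probe sets whose names end in _s_at or _x_at can share probes between transcripts, so the values of single tubulin genes are uncertain. This holds for tbb-4 among the members, and ttll-4 has such a probe set too.

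Of the other enzymes that modify tubulin, 6 of 7 listed genes had a probe set with 1 gene name and 0 were called in any of the 3 comparisons. Their median difference between the double mutant and the single mutant was -0.03, with 0.06 and -0.14 within the sets. The lowest value was in mec-17, an alpha-tubulin acetyltransferase gene of touch receptor neurons, at -0.57 ± 0.22 (limma adjusted p = 0.946). The highest was in ttll-12, of the same family as the glutamylases, at 0.67 ± 0.27 (limma adjusted p = 0.946). The differences from the wild type were -0.18 ± 0.22 and 0.74 ± 0.27. Between the single mutant and the wild type mec-17 was at 0.38 ± 0.21 and ttll-15 at 0.29 ± 0.21.

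**Figure D4:**
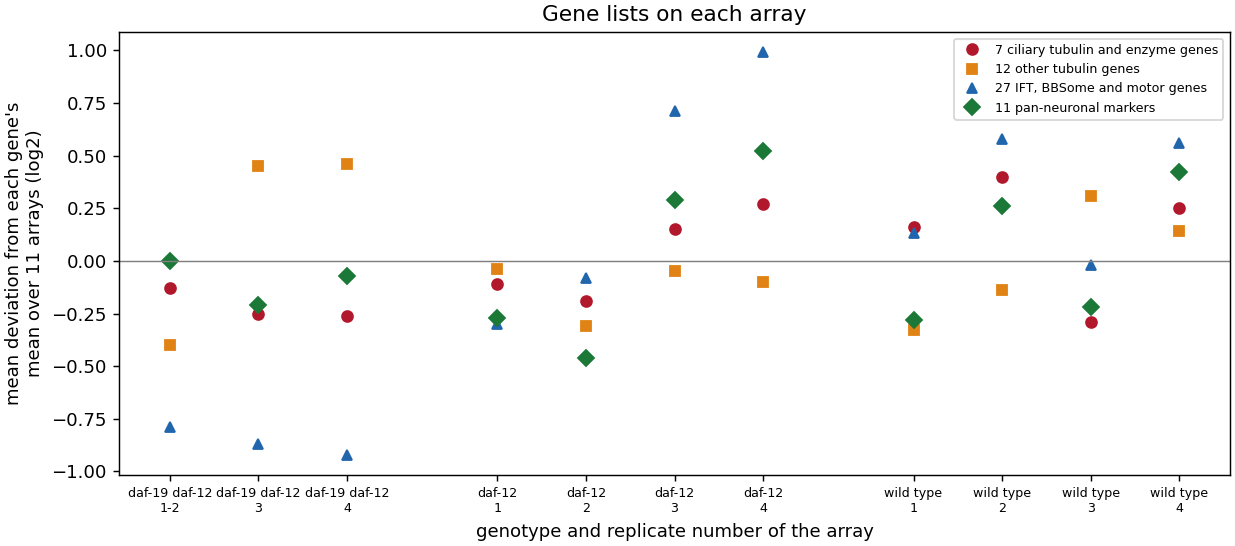
Mean deviation of each gene list on each of 11 arrays (points), in log2 units from each gene's own mean over the arrays. The 27 transport genes lie between -0.79 and -0.92 on the double mutant arrays, while the 7 ciliary tubulin and enzyme genes lie between -0.13 and -0.26 there and between -0.29 and 0.40 on the other arrays.

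Averaged by array, the 7 genes overlapped between genotypes. The mean deviation from each gene's own mean was -0.13, -0.25 and -0.26 on the double mutant arrays and -0.11, -0.19, 0.15 and 0.27 on the single mutant arrays. On the wild type arrays it was 0.16, 0.40, -0.29 and 0.25. The lowest array of all was wild type array 3, and replicates 3 and 4 of the single mutant lay above its replicates 1 and 2.

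Neuronal markers also varied between these arrays. The mean deviation of 11 pan-neuronal genes was -0.27, -0.46, 0.29 and 0.52 on single mutant arrays 1 to 4, and -0.28, 0.26, -0.22 and 0.42 on the wild type arrays. On the double mutant arrays it was 0.00, -0.21 and -0.07. Summed over the 11 genes, the log2 level ranged from 102.46 to 104.78 in the double mutant, 99.68 to 110.46 in the single mutant and 101.64 to 109.41 in the wild type. Of the 11, 0 were called in any comparison, and their group means of 7.79 to 11.41 lay above the spike-in range of replicates 1 and 2. Their median difference between the double mutant and the single mutant was 0.21 within replicates 1 and 2, but -0.71 within replicates 3 and 4. For the 7 ciliary tubulin and enzyme genes these medians were 0.03 and -0.49. The part of the neuronal signal in the members' values was not tested.

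Most markers of the neurons that release extracellular vesicles were dim. The group means of klp-6, cil-7, pkd-2, cwp-1 and cwp-2 were 3.50 to 4.63, inside the range of the spike-in probe sets on replicates 1 and 2. Those of lov-1 were brighter, at 5.82 to 5.96, and those of cwp-4 were 4.71 in the double mutant, 6.05 in the single mutant and 5.83 in the wild type. The most negative difference was in cwp-4, at -1.34 ± 0.33 from the single mutant (limma adjusted p = 0.461) and -1.12 ± 0.33 from the wild type (limma adjusted p = 0.876). In each of these comparisons the arrays of 2 of the 7 genes lay lower without overlap, cwp-4 among them. This held for 2.97% and 2.66% of all probe sets. Of the 7 listed markers 0 were called in any comparison, and their median difference between the double mutant and the single mutant was -0.17. Their summed log2 level was 29.45 to 30.84 in the double mutant, 31.68 to 34.22 in the single mutant and 31.01 to 32.22 in the wild type. Differences from the single mutant were -0.61 in cil-7, -0.30 in klp-6 and -0.17 to -0.01 in pkd-2, lov-1, cwp-1 and cwp-2. From the wild type they were -0.03 in cil-7, -0.38 in klp-6 and -0.17 to 0.10 in pkd-2, lov-1, cwp-1 and cwp-2. The sum thus leans on cwp-4. The part of the vesicle-releasing neurons in the values of tba-6 and ttll-11 was not tested.

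For each member the other genes with the most alike pattern were named by Pearson r over the 11 arrays, as a description. For tba-5 these were npr-10 (0.919), F49D11.2 (0.907) and mks-3 (0.907), of which mks-3 encodes a transition zone protein of cilia. For ttll-11 they were acr-9 (0.968), nhr-216 (0.956) and egl-13 (0.927). For tba-6 they were fbxl-4 (0.982), pugs-2 (0.98) and pef-1 (0.978).

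The nearest to tba-9 were B0491.6 (0.968), F55D12.5 (0.938) and C07A9.5 (0.938). The nearest to tbb-4 were pdl-1 (0.907), unc-69 (0.903) and F21E9.2 (0.898). For ccpp-1 they were hum-6 (0.985), set-19 (0.97) and sel-2 (0.966), and for ttll-4 kin-29 (0.954), cyld-1 (0.937) and M28.8 (0.933). These arrays share genotypes and sets, so genes that follow either have a high r. None of the 21 genes was a tubulin gene or a listed enzyme gene. Among the members themselves r ran from -0.219 for tbb-4 with ccpp-1 to 0.743 for tba-5 with ttll-11.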

How the data were processed

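The deposited values are log2 expression from Affymetrix arrays, and per the submitters' processing notes the authors used RMA, with no version given. All 12 columns were mapped and 0 were left unmapped. Without 77 control probe sets, 22548 remained for testing. The test was limma's (version 3.58.1, under R 4.3.3; lmFit, then eBayes) on 11 arrays in 3 groups with no block, two-sided, with Benjamini-Hochberg adjustment over all tested probe sets. The brightest probe set stood for a gene. The fit was tested on simulated data. Precision is limited by the number of arrays. The members and lists were chosen with earlier results of these data known. Named were all members, the 2 genes with the lowest unadjusted p of each other list in a comparison, mec-7, mec-12, mec-17 and daf-19, and 3 genes most like each member; tba-2 on single arrays and the extracellular vesicle markers were chosen after their values were seen. Deviations from group means correlated between arrays of equal number at 0.22 to 0.26 (double mutant and daf-12 single mutant), 0.33 to 0.49 (double mutant and wild type) and -0.03 to 0.67 (single mutant and wild type), with array 1-2 taken as number 1. The labels state no pairing. Arrays of equal number also share a set, and r was not computed for arrays of unequal number, so these values cannot tell pairs from sets. A fit with a replicate block was run beside the fit without one, from which all differences are given unless stated. Alternatives were a replicate block, the set of arrays as a block, each set alone, other scalings, a filter on dim probe sets, other variance models and samples, and leaving out each array. No sequence was used here.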

Additional observations from a re-analysis of the deposited data

Results flagged for a closer look

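Dixon's test on the groups of 4 arrays singled out 2 of 16 groups of member values, where chance gives about 1 in 20. The gene tba-5 stood low on single mutant array 2, at 5.54 against 5.88 to 5.93 on the other single mutant arrays, a gap of 0.856 of the group's range. The gene ttll-4 stood low on wild type array 3, at 8.26 against 8.91 to 8.99, a gap of 0.881 of the range. Wild type array 3 was also the lowest wild type array in tba-5, tba-9 and both ccpp-1 probe sets, and its spike-in mean of 10.21 was the highest of all arrays.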

How the results depend on the processing

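The number of called member probe sets was 0 under 20 of 21 alternatives for the double mutant against the single mutant and 0 under 21 of 21 for each other comparison, with 0 to 0 when any array was left out. The exception was the fit within replicates 3 and 4 alone, which called 1 (ttll-11, at -1.05). The filter on dim probe sets removed ttll-11, so it gave no value for it. The fit with a replicate block called 0 and changed no call; there the double mutant differed from the single mutant by -0.66 in ttll-11 (adjusted p = 0.56) and -0.51 in tba-5 (adjusted p = 0.582). Small differences turned sign, none of them called. Within replicates 1 and 2, values were 0.03 (tba-6) and 0.10 (tba-9) for the double mutant against the single mutant, 0.04 (ttll-4) for the double mutant against the wild type, and -0.39 (tba-6) and -0.31 (ttll-11) for the single mutant against the wild type. Within replicates 3 and 4 the double mutant gave 0.07 (tbb-4), -0.15 (ccpp-1) and -0.16 (ttll-4) against the single mutant and 0.23 (ccpp-1) and 0.02 (ttll-4) against the wild type. The single mutant gave 0.14 (tba-5), 0.35 (tba-9), 0.38 (ccpp-1) and 0.18 (ttll-4) against the wild type there. The mean of the ccpp-1 probe sets gave -0.19 against the single mutant, all 12 columns as separate arrays gave 0.03 in ttll-4 against the wild type, and centring on the median gave -0.03 in ttll-11 for the single mutant against the wild type. The cause was not tested. Leaving out 1 array turned signs in 24 of 231 fitted values, which belong to 10 differences. For the double mutant against the single mutant the ranges were -0.16 to 0.19 (ccpp-1), -0.24 to 0.12 (tbb-4) and -0.08 to 0.12 (ttll-4). Against the wild type they were -0.46 to 0.08 (ccpp-1) and -0.2 to 0.04 (ttll-4). For the single mutant against the wild type they were -0.51 to 0.03 (ccpp-1), -0.22 to 0.02 (tba-5), -0.19 to 0.3 (tba-6), -0.36 to 0.05 (tba-9) and -0.06 to 0.14 (ttll-11). The difference of ttll-11 from the single mutant ran from -0.92 to -0.58, and from the wild type from -0.91 to -0.57. The part of background signal in ttll-11 was not tested, which limits its value.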
